A study of Mus musculus with 55 samples.

Results

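Interscapular brown fat was compared with subcutaneous white fat in mice given corticosterone at 22 °C. The comparison used the 5 libraries of corticosterone-treated interscapular brown adipose tissue (iBAT) and the 5 of corticosterone-treated subcutaneous white adipose tissue (scWAT), 10 of the 55 libraries of the series, chosen by their labels and joined by gene ID. Both groups came from male C57BL/6NRj mice that were 10 weeks old, drank corticosterone, the main glucocorticoid of rodents, for 4 weeks and were housed at 22 °C. For the tests of whether the depot difference itself changed, the placebo libraries at 22 °C (3 iBAT, 4 scWAT) and the corticosterone libraries at 13 °C (5 iBAT, 4 scWAT) were used, from mice of the same strain, sex, age and treatment time. RNA was taken from areas cut out of tissue sections by laser capture and amplified with the SMART-seq2 protocol, and the labels do not say how the areas were chosen or whether each library came from its own mouse. What the p-values weigh is thus the spread from library to library, and they are too small where libraries of a group came from 1 animal.

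Brown adipocytes burn fatty acids and glucose to make heat. Noradrenaline from sympathetic nerves acts through adrenergic receptors and cyclic AMP, lipolysis releases fatty acids, and uncoupling protein 1 (UCP1) lets protons return into the mitochondrial matrix without ATP synthesis. White adipocytes store triglyceride in one large droplet and secrete hormones such as leptin and adiponectin. Glucocorticoids act on both through the glucocorticoid receptor and are known to enlarge the lipid stores of brown fat in rodents.

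The total count was 19531561 to 35790654 in the iBAT libraries and 20841288 to 43758510 in the scWAT libraries. Values are CPM, counts scaled to a common library size with edgeR's TMM factors, and fold changes are log2 of iBAT over scWAT from 1 edgeR fit over the 55 libraries. Genes with an adjusted p under 0.05 (Benjamini-Hochberg over all genes tested) are the ones referred to as called. Of 22245 genes tested, 3188 (14.3%) were called higher and 4300 (19.3%) lower in iBAT, with a median log2 fold change of -0.21 over all of them. The lowest iBAT library lay above the highest scWAT library for 1813 genes (8.15%), and the reverse held for 1839 genes (8.27%). The first principal component held 60.63% of the variance and put every iBAT library on the other side from every scWAT library. Correlations of log2 CPM were 0.871 to 0.947 within iBAT, 0.816 to 0.945 within scWAT and 0.609 to 0.845 between depots. Mitochondrially encoded transcripts took 11.4% to 22.2% of the counts in iBAT and 2.36% to 7.01% in scWAT.

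Some libraries stood apart. The summed level of 19 macrophage markers was 6937 CPM in iBAT replicate 5 and 169.8 to 704.2 CPM in the other iBAT libraries. In scWAT it was 13280 CPM in replicate 2 and 9319 CPM in replicate 3, against 925.6 to 2085 CPM in the other scWAT libraries. The same scWAT replicate 2 also carried skeletal muscle markers, at a summed 2843 CPM against 59.84 to 104.3 CPM in the other scWAT libraries, and iBAT replicate 3 carried 342.2 CPM against 72.76 to 103.2 CPM in the other iBAT libraries. The part of these cells in the results was not tested beyond the counts without those libraries that are given with the groups they touch.

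The labels of both depots were matched by their defining genes. Ucp1, the heat-producing uncoupler, had 3268, 4334, 5359, 3889 and 5288 CPM in iBAT, against 4.61, 2.69, 17.3, 2.03 and 6.34 CPM in scWAT. Every iBAT library lay far above every scWAT library, at a log2 fold change of 9.39 ± 1.75 SE, edgeR adjusted p = 4.69e-05. Ucp1 lies on chromosome 8, from 83290352 to 83298452 on the plus strand of GRCm38. Zic1, a transcription factor of the interscapular brown lineage, had 2.1, 2.89, 1.46, 3.37 and 1.92 CPM in iBAT, against 0, 0, 0.0266, 0.0827 and 0.112 CPM in scWAT. Hoxc9, a homeobox gene of the posterior trunk, had 0, 0.114, 0.132, 0.232 and 0.0875 CPM in iBAT, against 24.5, 18.6, 12.1, 30.9 and 34.1 CPM in scWAT. Each of these markers was far lower in the opposite depot. The adipocyte hormone gene Adipoq was present in all 10 libraries, at 779, 647, 616, 2572 and 1481 CPM in iBAT, against 3435, 3986, 3414, 4557 and 4363 CPM in scWAT.

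**Figure D1:**
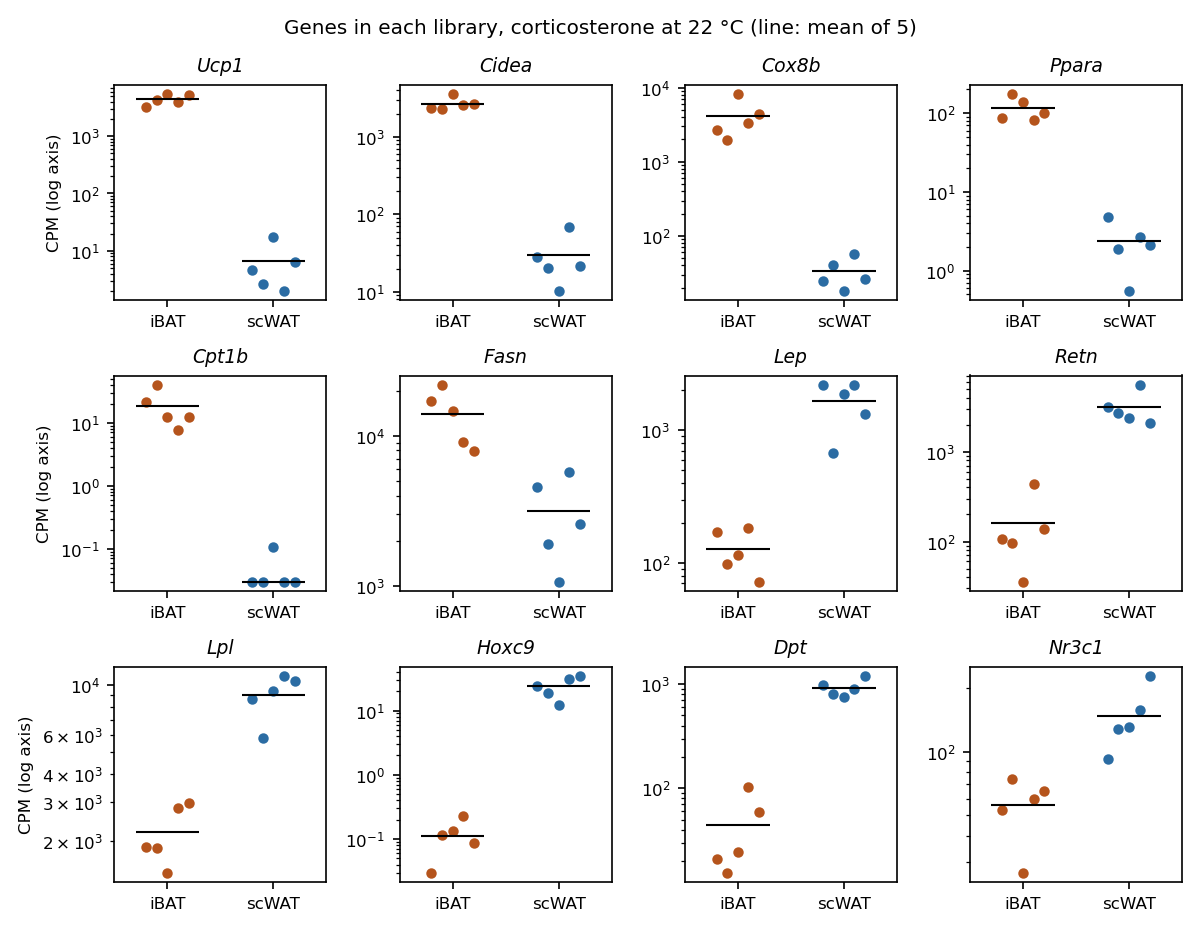
CPM on log axes in each of the 5 iBAT and 5 scWAT libraries of corticosterone-treated mice at 22 °C for 12 genes, with a line at the mean; values under 0.03 CPM are drawn at 0.03. In every panel the iBAT points and the scWAT points do not overlap: Ucp1, Cidea, Cox8b, Ppara, Cpt1b and Fasn are higher in iBAT, and Lep, Retn, Lpl, Hoxc9, Dpt and Nr3c1 are lower.

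The listed thermogenic effectors, genes of heat production, were higher in brown fat throughout. All 20 measured thermogenic effectors were called higher in iBAT, where 14.3% of all genes tested were, and for 19 of them the groups did not overlap, where 8.15% of all genes did. Their median log2 fold change was 6.29, beside -0.21 over all genes. Cidea, a droplet protein of brown adipocytes, had 2385, 2275, 3537, 2578 and 2649 CPM in iBAT, against 28.3, 20.2, 10.4, 67.9 and 21.3 CPM in scWAT (log2 fold change 6.50 ± 1.24 SE, edgeR adjusted p = 6.15e-05). Dio2, the deiodinase that makes active thyroid hormone inside the cell, had 56.9, 181, 48.1, 93.8 and 112 CPM in iBAT, against 0.31, 0.264, 0.292, 0.579 and 0.112 CPM in scWAT (log2 fold change 8.34 ± 1.44 SE, edgeR adjusted p = 1.57e-05). In both genes the iBAT libraries were high together and the scWAT libraries low together. Cox8b and Cox7a1, isoforms of cytochrome c oxidase subunits found in brown fat and muscle, showed log2 fold changes of 6.95 and 6.54. Elovl3, a fatty acid elongase, rose by 6.08 on the same scale, and Otop1, a proton channel, by 6.87. Acot11, an acyl-CoA thioesterase, had a log2 fold change of 7.03, Letmd1, a mitochondrial protein needed for heat production in mice, of 4.69, and Pank1, a kinase of coenzyme A synthesis, of 4.37. Fabp3, a fatty acid binding protein, had one of 8.19, but its reads are uncertain because the near-identical pseudogene Fabp3-ps1 took up similar counts. Slc25a20, the carnitine carrier of the mitochondrial inner membrane, had the smallest adjusted p of the list, at a log2 fold change of 3.06 ± 0.33 SE, edgeR adjusted p = 7.84e-10. Cyp2b10, a cytochrome P450, had 291, 309, 171, 358 and 243 CPM in iBAT, against 4.24, 4.38, 2.13, 8.15 and 4.23 CPM in scWAT (log2 fold change 5.90 ± 0.78 SE, edgeR adjusted p = 1.12e-07). Its 5 iBAT libraries all lay above its 5 scWAT libraries.

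Promoter sequences are shown for 3 genes that were called higher in iBAT: Ucp1, the gene that defines brown fat, Idh3g, a subunit of the citric acid cycle enzyme isocitrate dehydrogenase, and Sdhd, a subunit of respiratory complex II. They are RefSeq windows on GRCm38.p6, 250 bases before to 50 bases from the transcription start, written 5′ to 3′ on the gene's strand. Capitals mark AGGTCA on either strand, the half-site bound by nuclear receptors such as the fatty acid sensor PPARα, and TCAAGGTCA, the longer form bound by the oestrogen-related receptors, which contains AGGTCA.
Ucp1, chr8:83290098-83290397, plus strand: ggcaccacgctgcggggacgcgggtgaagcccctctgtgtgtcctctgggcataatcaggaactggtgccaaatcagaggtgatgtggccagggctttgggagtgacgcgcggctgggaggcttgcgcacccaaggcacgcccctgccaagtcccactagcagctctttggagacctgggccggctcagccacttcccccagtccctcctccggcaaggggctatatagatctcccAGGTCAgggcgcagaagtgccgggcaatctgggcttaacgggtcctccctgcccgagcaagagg
Idh3g, chrX:73786848-73787147, minus strand: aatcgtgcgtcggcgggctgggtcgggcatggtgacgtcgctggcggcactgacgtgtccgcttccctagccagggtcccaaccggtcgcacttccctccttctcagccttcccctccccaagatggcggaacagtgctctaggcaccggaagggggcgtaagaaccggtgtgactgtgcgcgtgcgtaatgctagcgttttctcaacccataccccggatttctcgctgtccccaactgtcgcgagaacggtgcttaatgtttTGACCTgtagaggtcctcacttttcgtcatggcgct
Sdhd, chr9:50603800-50604099, minus strand: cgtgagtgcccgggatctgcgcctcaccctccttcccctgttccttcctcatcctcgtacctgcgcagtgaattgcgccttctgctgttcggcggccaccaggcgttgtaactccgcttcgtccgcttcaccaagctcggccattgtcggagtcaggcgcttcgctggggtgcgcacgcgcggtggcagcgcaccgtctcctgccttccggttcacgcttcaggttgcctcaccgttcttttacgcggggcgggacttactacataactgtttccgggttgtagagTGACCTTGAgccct
AGGTCA was found in 16.3% of the 32851 promoter windows of the table and TCAAGGTCA in 0.423%. Among thermogenic effectors, AGGTCA stood in 3 of 17 windows, and among the nuclear subunits of complexes II to V in 8 of 31, of which 2 (Sdhd and Atp5g3) held TCAAGGTCA. For the citric acid cycle it was 5 of 22 windows, and for white adipocyte genes 0 of 24. TCAAGGTCA stood in no window of the thermogenic, complex I, fatty acid oxidation, citric acid cycle or white adipocyte lists. The 3 windows shown all hold a match, while most windows of their lists do not. A match describes these letters and does not show that a factor binds there.

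Nuclear receptors that drive oxidative genes were higher in brown fat, while the identity factors Prdm16 and Lhx8 were not called. Of 21 measured transcription regulators of brown fat, 10 were called higher and 1 lower, with a median log2 fold change of 0.95. Ppara, the fatty acid sensing nuclear receptor, had 87.3, 174, 138, 82 and 99.7 CPM in iBAT, against 4.75, 1.86, 0.558, 2.65 and 2.13 CPM in scWAT (log2 fold change 5.60 ± 0.59 SE, edgeR adjusted p = 9.3e-10). Esrrg, an oestrogen-related receptor, had 9.76, 18.8, 4.69, 8.53 and 8.16 CPM in iBAT, against 0.145, 0.0352, 0.0266, 0.248 and 0.028 CPM in scWAT (log2 fold change 6.75 ± 0.82 SE, edgeR adjusted p = 1.43e-08). Neither gene's groups overlapped. The coactivators of mitochondrial biogenesis Ppargc1a and Ppargc1b rose by 2.89 and 2.53 on the log2 scale, and Ebf2, a factor of brown precursors, by 1.04. Without scWAT replicates 2 and 3, Ebf2 was no longer called (log2 fold change 0.78, edgeR adjusted p = 0.0511). Prdm16, a zinc finger factor of brown and beige identity, was not called, at 15.1, 20.4, 8, 15 and 8.89 CPM in iBAT and 8.77, 8.86, 5.98, 13 and 12.9 CPM in scWAT (log2 fold change 0.45 ± 0.31 SE, edgeR adjusted p = 0.263). Lhx8, used in mice as a brown fat marker, was not called either, at 10.7, 4.26, 2.45, 10.3 and 2.27 CPM in iBAT and 9.26, 10.5, 11.3, 9.97 and 4.21 CPM in scWAT (log2 fold change -0.59 ± 0.61 SE, edgeR adjusted p = 0.467). The libraries of both genes overlapped between depots. Ebf1, an adipocyte differentiation factor and the single member called lower (log2 fold change -0.77 ± 0.25 SE, edgeR adjusted p = 0.0165), lost the call when iBAT replicate 1 or 3 or scWAT replicate 4 or 5 was left out, with log2 fold changes of -0.51 to -0.68.

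Respiratory chain transcripts from both genomes were higher in brown fat. Of 36 nuclear complex I subunits, 35 were called higher and none lower, with a median of 1.83. Of 37 nuclear subunits of complexes II to V, 33 were called higher and 1 lower, with a median of 1.94. Of the 13 protein-coding transcripts of the mitochondrial genome, 11 were called higher and none lower, with a median of 2.07. Ndufv1, the NADH-binding subunit of complex I, had 2218, 2330, 3054, 1377 and 1459 CPM in iBAT, against 322, 172, 104, 163 and 134 CPM in scWAT (log2 fold change 3.54 ± 0.39 SE, edgeR adjusted p = 1.17e-09). Uqcrc2, a core subunit of complex III, had 1455, 1287, 1188, 1417 and 1495 CPM in iBAT, against 233, 186, 110.5, 148 and 71.2 CPM in scWAT (log2 fold change 3.19 ± 0.32 SE, edgeR adjusted p = 1.73e-10). The groups were separate for both genes. Ndufs1, the largest core subunit of complex I, rose by 2.73 on the log2 scale. Atp5b, the catalytic subunit of ATP synthase, rose by 2.73 on the log2 scale, Sdhd by 2.36, the mitochondrially encoded mt-Nd5 by 2.55 and mt-Cytb by 2.90. Atp5g1, one of several genes for the same membrane ring subunit of ATP synthase, was the exception, at 2.47, 1.56, 10.8, 12.7 and 10.3 CPM in iBAT, against 31.1, 42.6, 33.5, 39.4 and 22.8 CPM in scWAT (log2 fold change -2.16 ± 0.46 SE, edgeR adjusted p = 0.00021). Its 5 iBAT libraries all lay below its 5 scWAT libraries.

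The enzymes that feed the chain followed. Of 18 measured genes of the citric acid cycle and pyruvate dehydrogenase, 17 were called higher and none lower, with a median of 3.01. Idh3g, of isocitrate dehydrogenase, had 1676, 1194, 1861, 1361 and 1586 CPM in iBAT, against 234, 199, 125, 204 and 157 CPM in scWAT (log2 fold change 3.06 ± 0.28 SE, edgeR adjusted p = 1.63e-11). Fh1, fumarase, rose by 3.25 on the log2 scale. Of 24 fatty acid oxidation genes, 21 were called higher and 1 lower, with a median of 2.38. Acaa2, the last thiolase step of the spiral, had 3573, 3661, 4947, 2775 and 3818 CPM in iBAT, against 341, 199, 166, 206 and 160.3 CPM in scWAT (log2 fold change 4.13 ± 0.42 SE, edgeR adjusted p = 3e-10). The isoforms of the entry enzyme carnitine palmitoyltransferase 1 went opposite ways. Cpt1b, the isoform of muscle and brown fat, had 21.5, 39.2, 12.4, 7.66 and 12.1 CPM in iBAT, against 0.0207, 0.0176, 0.106, 0 and 0 CPM in scWAT (log2 fold change 9.10 ± 1.59 SE, edgeR adjusted p = 1.67e-05). Cpt1a, the liver isoform, had 1.78, 6.32, 3.64, 11.3 and 14.8 CPM in iBAT, against 21.1, 58.3, 63.7, 21.4 and 32.3 CPM in scWAT (log2 fold change -2.37 ± 0.39 SE, edgeR adjusted p = 4.18e-06). For Cpt1b every iBAT library was above, and for Cpt1a every iBAT library below, all scWAT libraries. Of 77 mitochondrial ribosomal proteins, 57 were called higher and none lower, with a median of 1.08, and Mrps2 and Mrpl39 rose by 1.82 and 1.98 on the log2 scale. Of 18 genes of branched-chain amino acid breakdown, 13 were called higher and none lower, with a median of 1.1, and Hibadh and Pccb, enzymes of valine and propionate breakdown, rose by 1.6 and 1.52.

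**Figure D2:**
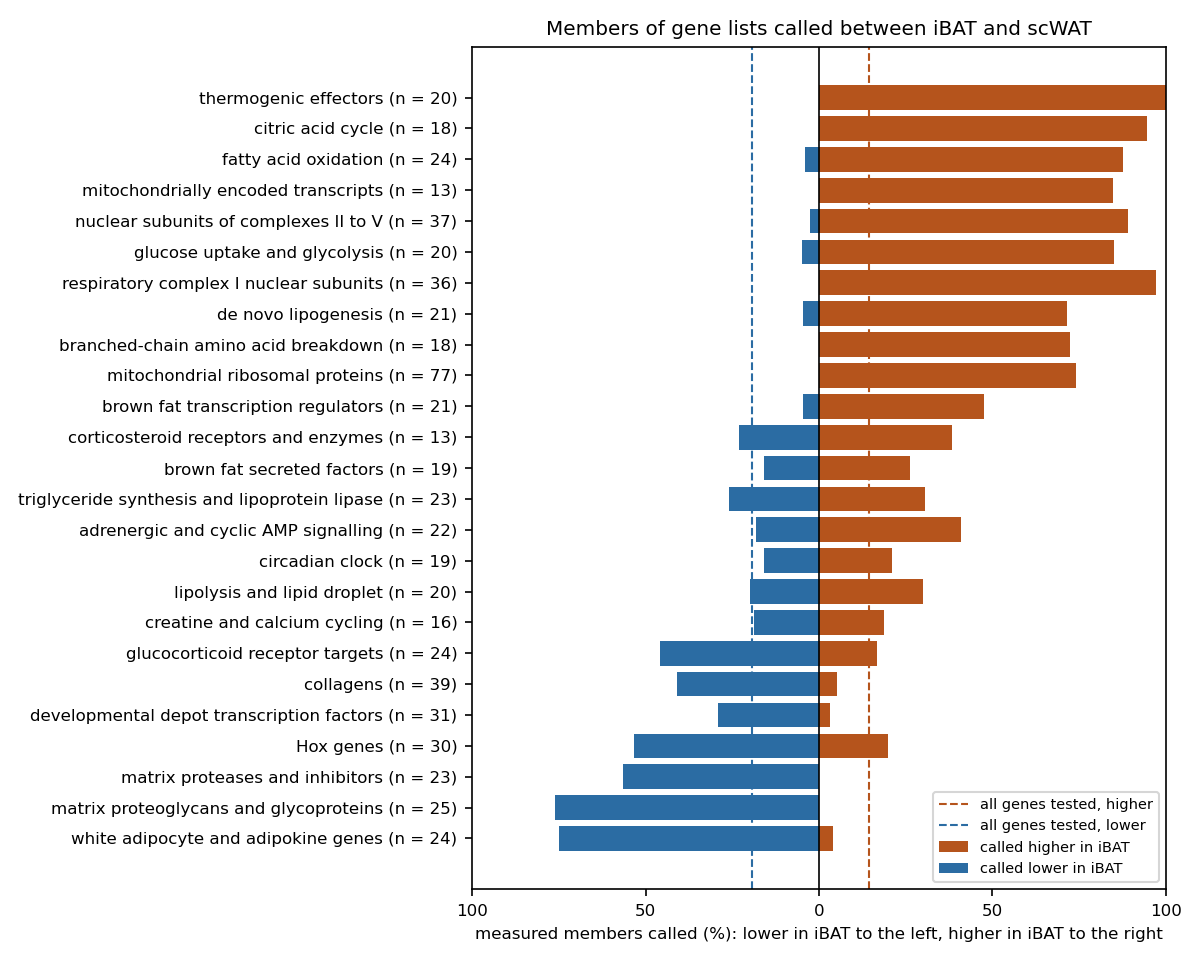
Share of the measured members of each gene list that was called between iBAT and scWAT, with lower in iBAT to the left and higher in iBAT to the right, ordered by the list's median log2 fold change; dashed lines give the same shares over all genes tested (19.3% lower, 14.3% higher). Thermogenic and mitochondrial lists reach far to the right, and white adipocyte and matrix lists far to the left.

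Most genes of glucose use and fatty acid synthesis were higher in brown fat. Of 20 genes of glucose uptake and glycolysis, 17 were called higher and 1 lower, with a median of 1.93. Ldhb, a lactate dehydrogenase subunit of oxidative tissues, had 704, 559.9, 769.9, 672 and 743 CPM in iBAT, against 92.1, 51, 31.9, 75.5 and 64.2 CPM in scWAT (log2 fold change 3.45 ± 0.32 SE, edgeR adjusted p = 3.83e-11). Gpi1, which interconverts glucose and fructose phosphates, rose by 3.07 on the log2 scale. The insulin receptor gene Insr was the member called lower, at -1.01 (edgeR adjusted p = 0.0038), and was not called in the fit of the 10 libraries alone (log2 fold change -0.93, edgeR adjusted p = 0.0643). Of 21 de novo lipogenesis genes, 15 were called higher and 1 lower, with a median of 1.73. Fasn, fatty acid synthase, had 17010, 21760, 14570, 9170 and 7975 CPM in iBAT, against 4576, 1904, 1067, 5716 and 2582 CPM in scWAT (log2 fold change 2.15 ± 0.43 SE, edgeR adjusted p = 0.000114). Acacb, the mitochondrial acetyl-CoA carboxylase, Scd1, a desaturase, Mlxipl, the glucose-sensing factor ChREBP, and Tkt, a pentose phosphate enzyme, rose by 3.07, 2.61, 2.41 and 2.85 on the log2 scale. The desaturase Fads1 was the member called lower, at -1.44 (edgeR adjusted p = 0.00306).

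Genes of triglyceride assembly split between the depots, with 7 of 23 called higher and 6 lower and a median of 0.22, which was -0.02 without scWAT replicates 2 and 3. Over all genes tested, 14.3% were called higher and 19.3% lower. Gpd1, which makes glycerol 3-phosphate from a glycolytic intermediate, had 9917, 15620, 6055, 4648 and 5882 CPM in iBAT, against 1445, 550, 585, 1423 and 619 CPM in scWAT (log2 fold change 3.19 ± 0.52 SE, edgeR adjusted p = 3.72e-06). Lpl, the lipase that frees fatty acids from lipoproteins, had 1880, 1877, 1450, 2824 and 2974 CPM in iBAT, against 8639, 5812, 9399, 10960 and 10480 CPM in scWAT (log2 fold change -2.04 ± 0.27 SE, edgeR adjusted p = 7.33e-08). The groups did not overlap for either gene. Gpat3 and Mogat2, acyltransferases, fell by 1.81 and 4.19 on the log2 scale. Pck1, of glyceroneogenesis, was not called, with a log2 fold change of 0.32 (edgeR adjusted p = 0.473). Of 20 genes of lipolysis and droplets, 6 were called higher and 4 lower, with a median of -0.06. The 4 called lower were a share near that of all genes tested. Plin5, which ties droplets to mitochondria, had 413, 396, 427, 296 and 232 CPM in iBAT, against 37.8, 11.6, 8.75, 21.7 and 10.6 CPM in scWAT (log2 fold change 4.29 ± 0.64 SE, edgeR adjusted p = 9.17e-07). Cidec, which fuses droplets into larger ones, had 689, 716, 595, 1018 and 601 CPM in iBAT, against 5524, 2207, 2103, 3737 and 2598 CPM in scWAT (log2 fold change -2.16 ± 0.28 SE, edgeR adjusted p = 5.22e-08). Plin4 fell by 1.57, so the perilipins did not move together.

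Of 22 adrenergic and cyclic AMP genes, 9 were called higher, where 14.3% of all genes tested were, with a median of 0.21. The 4 called lower were a share near the 19.3% of all genes tested. Adra1a, an alpha-1 receptor, had 64.3, 110.1, 39.1, 48.7 and 39.5 CPM in iBAT, against 10.8, 5.86, 12.3, 11.5 and 10.7 CPM in scWAT (log2 fold change 2.56 ± 0.39 SE, edgeR adjusted p = 9.15e-07). Adrb3, the beta-3 receptor of adipocytes, had 729, 1926, 459, 499.6 and 421 CPM in iBAT, against 244, 270.2, 30.5, 241 and 458 CPM in scWAT (log2 fold change 1.70 ± 0.44 SE, edgeR adjusted p = 0.00229). Adra1a libraries did not overlap, while for Adrb3 one scWAT library reached into the iBAT range, and its call was lost in the fit of the 10 libraries alone (log2 fold change 1.77, edgeR adjusted p = 0.0512). Pde4d, a phosphodiesterase that degrades cyclic AMP, rose by 4.20 on the log2 scale and Rgs2, a G protein regulator, by 2.75. Adcy5, an adenylyl cyclase, fell by 3.74. Of 16 genes of creatine and calcium cycling, 3 were called higher and 3 lower, with a median of -0.51. Both counts were near the shares over all genes tested. Ckmt2, the mitochondrial creatine kinase of the creatine cycle, was not called and was at most 0.0761 CPM in 4 iBAT libraries and at most 0.0841 CPM in 4 scWAT libraries. It reached 2.18 CPM in iBAT replicate 3 and 10.1 CPM in scWAT replicate 2, the libraries with skeletal muscle markers. Without scWAT replicates 2 and 3, 1 gene of this list was called higher and 1 lower and the median was 0.62, and without iBAT replicate 3 and scWAT replicate 2 it was -0.21.

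White adipocyte genes were lower in brown fat. Of 24 measured genes of white adipocytes and their hormones, 18 were called lower, where 19.3% of all genes tested were, and 1 higher, with a median of -2.78. Lep, leptin, had 171, 98.3, 114, 184 and 72.2 CPM in iBAT, against 2184, 679, 1880, 2184 and 1337 CPM in scWAT (log2 fold change -3.69 ± 0.65 SE, edgeR adjusted p = 1.61e-05). Retn, resistin, had 106, 95.2, 35.8, 438 and 139 CPM in iBAT, against 3175, 2732, 2374, 5489 and 2088 CPM in scWAT (log2 fold change -4.28 ± 0.87 SE, edgeR adjusted p = 0.000138). Sfrp5, a secreted Wnt inhibitor, had 1.36, 2.63, 1.19, 1.33 and 0.671 CPM in iBAT, against 113, 40.4, 65.1, 48.2 and 57.7 CPM in scWAT (log2 fold change -5.49 ± 0.79 SE, edgeR adjusted p = 5.74e-07). In all 3 genes the groups were separate. Adipoq, adiponectin, fell by 1.70 on the log2 scale, Npr3, the natriuretic peptide clearance receptor, by 3.07, Nrip1, a corepressor of oxidative genes, by 3.35, and Mest, an imprinted gene of adipocyte expansion, by 4.10. Pnpla3, a lipase that follows lipogenesis, was the member called higher, at 2.00 (edgeR adjusted p = 0.000699).

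The largest falls in brown fat also included genes outside these lists. Retnla, a resistin-like protein of adipocytes and macrophages, had 0.63, 1.83, 2.91, 1.68 and 2.13 CPM in iBAT, against 30.8, 34.9, 200.5, 73.2 and 108 CPM in scWAT (log2 fold change -5.61 ± 0.59 SE, edgeR adjusted p = 7.84e-10). Chrdl1, a secreted antagonist of bone morphogenetic proteins, had 2.47, 2.51, 1.39, 5.28 and 1.92 CPM in iBAT, against 110.1, 77.5, 146, 83.5 and 184 CPM in scWAT (log2 fold change -5.47 ± 0.75 SE, edgeR adjusted p = 2.34e-07). All 5 iBAT libraries were lower in both genes. Apcdd1, a Wnt inhibitor, Ffar2, a receptor for short-chain fatty acids, and Serpina3n, a serine protease inhibitor, fell by 5.55, 5.35 and 5.11 on the log2 scale. Agt, angiotensinogen, and Slc7a10, a neutral amino acid transporter of white adipocytes, fell by 4.55 and 4.53. On the other side, Coq8a, a kinase-like protein of coenzyme Q synthesis, rose by 5.93. Of 19 factors secreted by brown fat, 5 were called higher and 3 lower, where 14.3% and 19.3% of all genes tested were. The median log2 fold change of this list was 0.38, and the 3 called lower were Metrnl, Adamts15 and Epdr1. Nrg4, a neuregulin, had 81.5, 78.5, 50.6, 141 and 80.9 CPM in iBAT, against 29.8, 26.3, 19, 48.5 and 28.2 CPM in scWAT (log2 fold change 1.51 ± 0.32 SE, edgeR adjusted p = 0.000254). Bmp8b, a bone morphogenetic protein of active brown fat, had 5.4, 2.63, 1.06, 2.67 and 1.2 CPM in iBAT and 0 counts in each scWAT library. Ptgds, a prostaglandin D synthase, and S100b, a calcium binding protein, rose by 6.73 and 4.40.

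Called Hox genes differed in direction with their paralogue number, the position within a cluster, and at numbers 1 to 5 also with the cluster. Hox proteins are transcription factors laid out in clusters whose low-numbered members act towards the head and high-numbered members towards the tail, and adipose depots keep such a code in adulthood. Of 30 measured Hox genes, 6 were called higher and 16 lower in iBAT. All 6 that were higher had paralogue numbers 1 to 5, where 6 of 13 were called higher, 3 lower and 4 not called, with a median log2 fold change of 0.56. The 6 were Hoxa2, Hoxa3, Hoxa4, Hoxa5, Hoxc4 and Hoxc5, and the 3 called lower were Hoxb4, Hoxd3 and Hoxd4. Of the 15 with numbers 6 to 10, 13 were called lower and none higher, with a median of -3.18, and neither of the 2 numbered 11 to 13 was called. Hoxa5 had 14.6, 20.1, 15.7, 18 and 18.4 CPM in iBAT, against 1.61, 2.09, 3.03, 4.05 and 10.3 CPM in scWAT (log2 fold change 2.04 ± 0.37 SE, edgeR adjusted p = 2.08e-05). Hoxc10, on chromosome 15 from 102966796 to 102971893, had 0.0525, 0.0761, 0, 0.058 and 0.0292 CPM in iBAT, against 16.4, 15.8, 16.2, 35.1 and 30.9 CPM in scWAT (log2 fold change -8.87 ± 1.22 SE, edgeR adjusted p = 2.3e-07). Hoxa10 had 0.157, 0.114, 0.0661, 0 and 0.0875 CPM in iBAT, against 38, 19.9, 17.4, 45.9 and 24.3 CPM in scWAT (log2 fold change -8.29 ± 1.10 SE, edgeR adjusted p = 1.12e-07). Hoxa5 was higher in every iBAT library, and Hoxa10 and Hoxc10 were close to 0 there. Hoxa3, Hoxa4, Hoxc4 and Hoxc5 rose by 2.54, 2.82, 1.97 and 1.16 on the log2 scale, while Hoxc8, Hoxa9, Hoxc9 and Hoxd9 fell by 4.50, 5.46, 7.73 and 3.13. Of 31 other developmental transcription factors, 9 were called lower and 1 higher, where 19.3% and 14.3% of all genes tested were. Shox2, of limb and trunk mesenchyme, had 0.787, 9.56, 1.92, 3.08 and 0.846 CPM in iBAT, against 49.7, 32, 50.2, 38.8 and 50.9 CPM in scWAT (log2 fold change -3.76 ± 0.65 SE, edgeR adjusted p = 1.29e-05). Osr1, Twist2, En1 and Tbx15, also factors of embryonic mesenchyme or skin, fell by 3.90, 2.53, 3.08 and 2.55. Tbx5, a factor of the forelimb and heart, was called higher (log2 fold change 2.14 ± 0.84 SE, edgeR adjusted p = 0.0425), but not when any 1 of 7 libraries (all but iBAT replicate 4 and scWAT replicates 4 and 5) was left out (edgeR adjusted p up to 0.106).

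**Figure D3:**
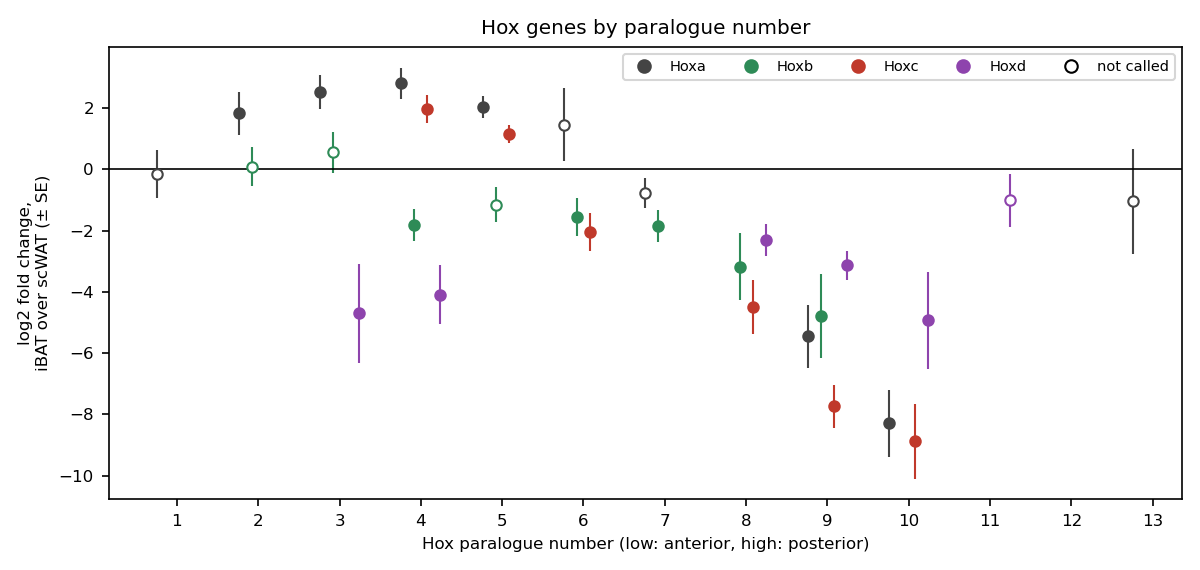
Log2 fold change (iBAT over scWAT, with standard error) of 30 Hox genes by paralogue number, coloured by cluster; filled points were called and open points were not. Called members numbered 6 to 10 lie below 0, down to -8.87 for Hoxc10, and members called higher are numbered 2 to 5.

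The receptor for corticosterone was lower in brown fat, and the genes it is known to control split between the depots. Nr3c1, the glucocorticoid receptor, had 52.7, 74.1, 26.8, 59.6 and 65 CPM in iBAT, against 92.1, 127, 131, 158 and 227 CPM in scWAT (log2 fold change -1.40 ± 0.28 SE, edgeR adjusted p = 9.58e-05). No iBAT library reached the lowest scWAT library. Hsd11b1, which regenerates active hormone inside the cell, was not called, at 1486, 821, 543, 2163 and 1184 CPM in iBAT and 1000, 655, 810.4, 1496 and 661 CPM in scWAT (log2 fold change 0.42 ± 0.40 SE, edgeR adjusted p = 0.422). Nr3c2, the mineralocorticoid receptor, was not called, with a log2 fold change of 0.79 (edgeR adjusted p = 0.0768). Chaperones of the receptor were higher, with Hsp90ab1 at 1.28 and Fkbp4 at 1.95 on the log2 scale, while the inhibitory co-chaperone Fkbp5 was lower (log2 fold change -1.30 ± 0.48 SE, edgeR adjusted p = 0.0319). The Fkbp5 call was lost without any 1 of 5 libraries (iBAT replicate 1, 2, 3 or 5 or scWAT replicate 4), with log2 fold changes of -0.94 to -1.32.

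Of 24 known glucocorticoid receptor targets, 11 were called lower, 4 higher and 9 neither, with a median of -0.77. The share called higher was near the 14.3% of all genes tested, of which 19.3% were called lower. Tsc22d3, the leucine zipper protein GILZ, had 73.4, 72.5, 85.9, 72.2 and 90.6 CPM in iBAT, against 333, 162, 242, 268 and 156 CPM in scWAT (log2 fold change -1.56 ± 0.39 SE, edgeR adjusted p = 0.00167). Rasd1, a small GTPase, had 38, 50.3, 32.7, 45.2 and 29.7 CPM in iBAT, against 546, 304, 85.5, 213 and 212 CPM in scWAT (log2 fold change -2.80 ± 0.53 SE, edgeR adjusted p = 4.83e-05). Pdk4, the kinase that shuts off pyruvate dehydrogenase, had 3008, 4848, 3339, 2674 and 2265 CPM in iBAT, against 72, 96.3, 86.5, 142 and 113 CPM in scWAT (log2 fold change 4.99 ± 0.72 SE, edgeR adjusted p = 5.91e-07). The first pair was lower and Pdk4 higher in every iBAT library. Klf15, a transcription factor of amino acid metabolism, Foxo1, of fasting metabolism, and Mt2, a metallothionein, fell by 1.93, 1.28 and 2.98 on the log2 scale. Dusp1, a MAP kinase phosphatase, Errfi1, an inhibitor of growth factor receptors, and Sgk1, a kinase, rose by 3.35, 1.88 and 1.61.

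No difference was called between the depots for several core clock genes. Arntl, the clock activator BMAL1, had 22, 51.5, 23.8, 8.88 and 24.1 CPM in iBAT and 26.5, 21.8, 23.7, 25.1 and 29.1 CPM in scWAT, and its log2 fold change was 0.05 (edgeR adjusted p = 0.943). Per1, a clock repressor that glucocorticoids induce, had 4.67, 8.76, 9.39, 10.5 and 12.9 CPM in iBAT and 7.46, 5.87, 8.99, 8.6 and 15.3 CPM in scWAT, and its log2 fold change was 0.00 (edgeR adjusted p = 0.999). The output factor Dbp and the adipose factor Irf4 were not called either, at 0.99 and 1.29 (edgeR adjusted p = 0.0735 and 0.115). Of 19 clock genes, 4 were called higher and 3 lower, with a median of 0.05. These counts were near the shares over all genes tested, 14.3% higher and 19.3% lower. Nfil3, Bhlhe40 and Cry1, repressors of the clock, rose by 3.05, 3.38 and 1.86 on the log2 scale, and Rora, a nuclear receptor that activates clock genes, fell by 1.16. The hour at which tissues were taken is not given in the labels.

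Extracellular matrix was lower in brown fat. Of 25 proteoglycans and glycoproteins, 19 were called lower and none higher, with a median of -1.84, and of 39 collagens 16 were called lower and 2 higher, with a median of -1.28. Without scWAT replicates 2 and 3, 14 collagens were called lower and 3 higher, with a median of -0.72. Dpt, dermatopontin, had 21.2, 15.6, 24.6, 102 and 59.9 CPM in iBAT, against 970.5, 800.3, 749, 900.5 and 1185 CPM in scWAT (log2 fold change -4.36 ± 0.59 SE, edgeR adjusted p = 1.45e-07). Col3a1, of fibrillar collagen III, had 131, 110.5, 89.4, 245 and 315 CPM in iBAT, against 1326, 2441, 2485, 875 and 1329 CPM in scWAT (log2 fold change -3.25 ± 0.45 SE, edgeR adjusted p = 1.62e-07). Col4a1, of basement membranes, had 254, 363, 285, 323 and 331 CPM in iBAT, against 928, 904, 999, 1049 and 1277 CPM in scWAT (log2 fold change -1.73 ± 0.23 SE, edgeR adjusted p = 5.21e-08). All 3 were lower in each iBAT library, and for Col3a1 the scWAT replicates 2 and 3 were highest. Sparc, Fn1 and Col6a1 fell by 2.69, 2.95 and 2.58 on the log2 scale. Of 23 matrix proteases and inhibitors, 13 were called lower and none higher, among them Adamts5, an aggrecan-cutting protease, at -4.40 and Timp2, a protease inhibitor, at -3.11. Markers of adipose progenitors moved with these genes, with 10 of 18 called lower and 2 higher and a median of -2.07. Their summed level was 245.2 to 280.1 CPM in iBAT and 453.8 to 683.2 CPM in scWAT. Col15a1 and Sema3c, of progenitors and young adipocytes, fell by 4.01 and 3.93, while the growth factor Pdgfd rose by 2.00. In tissue RNA, fewer cells of a type and less RNA per cell cannot be told apart.

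Most macrophage markers were lower in brown fat, with counts that moved with the libraries that stood apart and with the set of libraries fitted. Of 19 macrophage markers, 15 were called lower and none higher, with a median of -2.07, and for 1 of them, Cd163, the groups did not overlap with iBAT lower, as held for 8.27% of all genes. Cd163, a scavenger receptor of resident macrophages, had 7.98, 2.51, 0.86, 4.93 and 12.5 CPM in iBAT, against 40.2, 81.8, 79.2, 29.3 and 64.3 CPM in scWAT (log2 fold change -3.35 ± 0.47 SE, edgeR adjusted p = 2.36e-07). C1qa, a complement subunit made by macrophages, had 18.7, 6.93, 27.7, 25.4 and 124 CPM in iBAT, against 120, 362, 340.4, 91.6 and 122 CPM in scWAT (log2 fold change -2.35 ± 0.47 SE, edgeR adjusted p = 0.000105). The highest C1qa value in iBAT was that of replicate 5, and the highest in scWAT were those of replicates 2 and 3. Without scWAT replicates 2 and 3, in a fit that still held iBAT replicate 5, 4 of the 19 markers were called lower (Cd163, C1qa, C1qc and Mrc1), the median was -0.23 and 7 fold changes were above 0, none of them called. When iBAT replicate 5 was left out as well, 16 were called lower, with a median of -2.02. A fit of the 10 libraries alone called 4 lower, with a median of -2.01. Without iBAT replicate 3 and scWAT replicate 2, 6 were called lower, with a median of -1.43. Mrc1, the mannose receptor, kept its call without the 2 scWAT libraries, at a log2 fold change of -1.74 (edgeR adjusted p = 0.00859). Of 19 cell cycle genes 4 (a share near the 19.3% of all genes) and of 14 MHC class II genes 5 were called lower, with medians of -1.9 and -1.46. Without scWAT replicates 2 and 3 none of either list was called lower and the medians were 1.04 and -0.25, and without iBAT replicate 5 as well 0 and 4 were called lower, with medians of 0.05 and -1.26. The fit of the 10 libraries alone called 0 and 2 of them lower, with medians of -1.84 and -1.4. By contrast, without the 2 scWAT libraries white adipocyte genes still had 18, matrix glycoproteins 17 and thermogenic effectors 19 called in the directions given above. In the same fit, the count called higher went from 10 to 7 for brown fat transcription regulators and from 13 to 10 for branched-chain amino acid breakdown. It went from 57 to 48 for mitochondrial ribosomal proteins and from 11 to 9 for mitochondrially encoded transcripts.

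Over all genes tested, 14.3% were called higher and 19.3% lower. The endothelial, Schwann cell and skeletal muscle lists lay near or below these shares. Of 18 endothelial genes, 2 were called higher and 3 lower, with a median of 0, and Lyve1, of lymphatic vessels and some macrophages, fell by 3.67 on the log2 scale. Of 14 smooth muscle and pericyte genes, 4 were called higher and 2 lower. None of 9 erythrocyte genes and none of 17 lymphocyte genes was called by edgeR, which gave an unadjusted p under 0.05 for 1 of each. DESeq2 called 1 erythrocyte gene and 0 lymphocyte genes, and limma-voom 0 and 3. For 14 Schwann cell and nerve genes, 1 was called higher and 3 lower, for 15 neutrophil and mast cell genes 1 and 6, for 18 skeletal muscle genes 0 and 2, and for 16 genes of lipid-associated macrophages 1 and 5. The Schwann cell gene called higher was S100b, which is also counted with the factors secreted by brown fat. Lpl is counted as lower both with lipid-associated macrophages and with triglyceride assembly. Without scWAT replicates 2 and 3 the counts higher and lower were 0 and 2 for endothelial, 2 and 1 for smooth muscle, 1 and 0 for Schwann cell and nerve, 1 and 0 for skeletal muscle and 3 and 2 for lipid-associated macrophage genes. Epithelial and mammary markers, 13 measured, summed to 11.52 to 27.91 CPM in iBAT and 23.57 to 44.32 CPM in scWAT, and 10 mesothelial markers to 3.586 to 12.3 CPM in iBAT and 1.778 to 4.342 CPM in scWAT, with 1 member of each list called higher, and none without scWAT replicates 2 and 3.

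**Figure D4:**
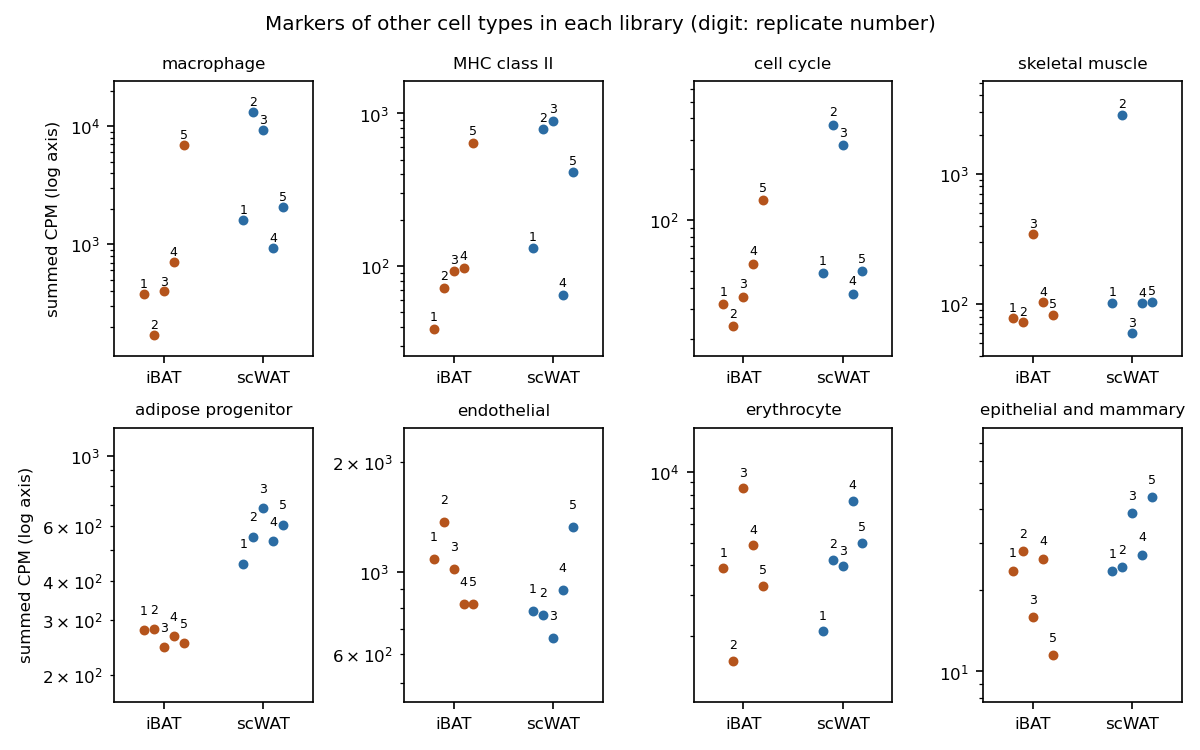
Summed CPM of marker lists of other cell types on log axes in each iBAT and scWAT library of corticosterone-treated mice at 22 °C, with the replicate number beside each point. Macrophage, MHC class II and cell cycle markers are high in iBAT replicate 5 and scWAT replicates 2 and 3, skeletal muscle markers in iBAT replicate 3 and scWAT replicate 2, and progenitor markers are lower in all iBAT libraries than in all scWAT libraries.

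Whether corticosterone changed the distance between the depots was tested as the depot difference under corticosterone minus that under placebo at 22 °C. Of the 22245 genes, 103 (0.463%) were called, 42 with a difference above 0 and 61 below 0, and 2886 had an unadjusted p under 0.05. A fit of the 36 iBAT and scWAT libraries called 107, of which 83 were above 0 and 24 below 0, and 59 of them were also called with the 55 libraries. Timp4, a metalloproteinase inhibitor of adipose tissue, had the smallest adjusted p. Under corticosterone it had 70.9, 55.5, 135, 152 and 78.1 CPM in iBAT, against 1391, 732, 648, 1137 and 776 CPM in scWAT, and under placebo it averaged 112 ± 25.2 CPM in iBAT and 87.6 ± 12.9 CPM in scWAT (SD, n = 3 iBAT and 4 scWAT, as for all placebo means). The depots lay apart under corticosterone and close together under placebo (difference -3.61 ± 0.54 SE on the log2 scale, edgeR adjusted p = 0.00041). Lpl averaged 2201 ± 663 CPM in iBAT and 9059 ± 2030 CPM in scWAT under corticosterone (SD, n = 5 each), and 6182 ± 2218 CPM in iBAT and 7152 ± 1292 CPM in scWAT under placebo (difference -1.83 ± 0.41 SE on the log2 scale, edgeR adjusted p = 0.0277). Its placebo libraries overlapped between depots, unlike those under corticosterone. Rasd1 averaged 39.2 ± 8.54 CPM in iBAT and 272 ± 172 CPM in scWAT under corticosterone (SD, n = 5 each), and 236 ± 184 CPM in iBAT and 107 ± 97.9 CPM in scWAT under placebo (difference -3.94 ± 0.79 SE on the log2 scale, edgeR adjusted p = 0.0148). The order of its means was the opposite under placebo, where libraries of the depots overlapped. Klf15 and Foxo1 also had differences below 0, of -2.02 and -1.61, as had Sfrp5 at -5.36, Retnla at -3.60, Adamts5 at -2.90, Chrdl1 at -4.94 and Agt at -4.98. Cd209d and Cd209f, lectins of macrophages, had -5.59 and -4.77, Slco3a1, an anion transporter, -3.09, and Lpgat1, a phospholipid acyltransferase, -2.30.

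For other genes the depot difference shifted towards brown fat under corticosterone. Slc16a1, the monocarboxylate transporter MCT1, had 306, 597, 289, 252 and 249 CPM in iBAT, against 32.3, 31.9, 40, 53.1 and 32.8 CPM in scWAT, under corticosterone, and averaged 149 ± 13.9 CPM in iBAT and 79.5 ± 26.5 CPM in scWAT under placebo (difference 2.25 ± 0.46 SE on the log2 scale, edgeR adjusted p = 0.0155). Ldhd, a D-lactate dehydrogenase, had 61.9, 65.9, 78.5, 56.2 and 58 CPM in iBAT, against 9.45, 7.28, 2.92, 8.27 and 8.07 CPM in scWAT, under corticosterone, and averaged 57.8 ± 14.8 CPM in iBAT and 27.8 ± 4.57 CPM in scWAT under placebo (difference 2.10 ± 0.43 SE on the log2 scale, edgeR adjusted p = 0.0155). In both, the scWAT libraries under corticosterone were the lowest of the 4 groups. Hspa1a, an inducible heat shock protein whose reads cannot be separated with confidence from those of Hspa1b, had 432, 503, 281, 132 and 196 CPM in iBAT, against 2.23, 4.22, 1.89, 0.951 and 2.44 CPM in scWAT, under corticosterone, and averaged 11.6 ± 4.5 CPM in iBAT and 1.56 ± 0.643 CPM in scWAT under placebo (difference 4.14 ± 0.82 SE on the log2 scale, edgeR adjusted p = 0.0148). Suclg2, a subunit of succinyl-CoA ligase, Chchd10, a protein of the mitochondrial intermembrane space, Hadhb, of fatty acid oxidation, Slc25a1, the citrate carrier, and Lrrc32, a surface anchor for the latent growth factor TGF-beta, had differences of 1.52, 3.52, 2.35, 3.03 and 3.21. Ucp1 was not called in this test, with means of 7399 ± 7854 CPM in iBAT and 113 ± 131 CPM in scWAT under placebo (difference 3.36 ± 2.00 SE on the log2 scale, edgeR adjusted p = 0.483). The placebo scWAT libraries ranged in Ucp1 from 11.1 to 288 CPM. The count of 103 was 7 without iBAT placebo replicate 1, 13 without iBAT placebo replicate 2 (in both, none above 0), 9 without scWAT placebo replicate 2 (2 above 0) and 378 without iBAT placebo replicate 3. Of the 22 genes named with a call in this test, Timp4 was the only one that kept it when each library was left out in turn and under every other alternative tried, and none of the 22 changed sign.

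**Figure D5:**
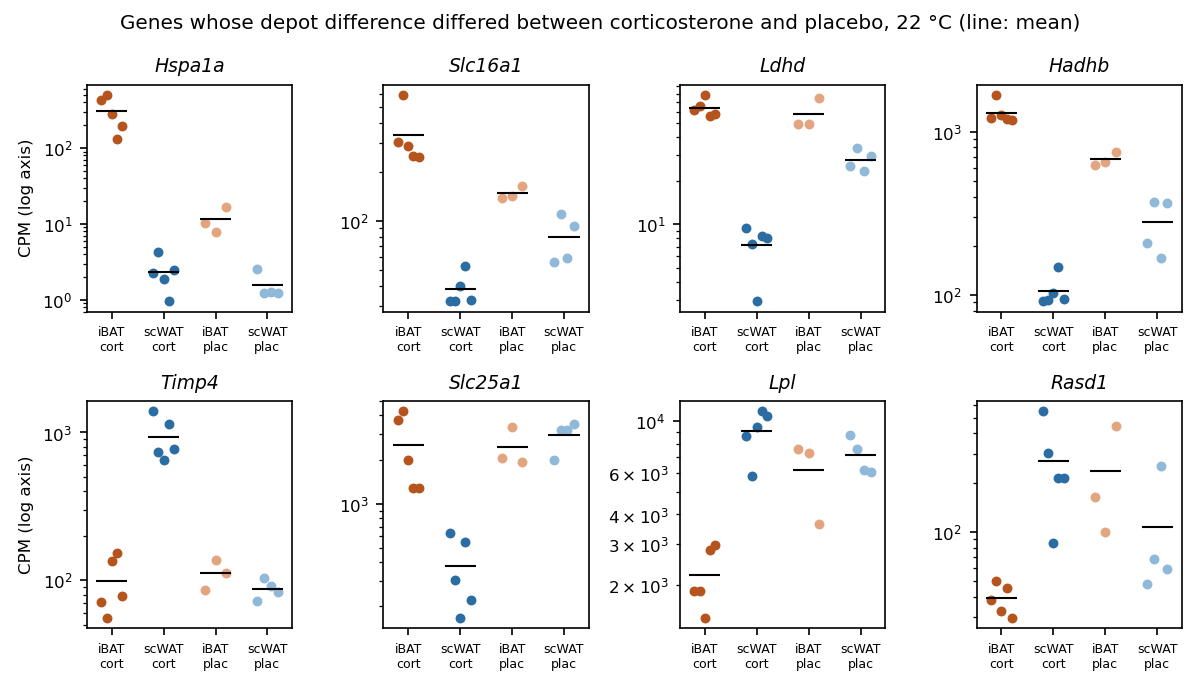
CPM on log axes in each library of iBAT and scWAT under corticosterone (5 and 5) and under placebo (3 and 4) at 22 °C for 8 genes whose depot difference differed between the treatments, with a line at the mean. For Timp4 and Slc25a1 the depots lie apart under corticosterone and overlap under placebo, and for Ldhd, Slc16a1 and Hadhb they lie farther apart under corticosterone.

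The same test between housing temperatures, the depot difference at 22 °C minus that at 13 °C under corticosterone, called 2004 genes (9.01%), 863 with a difference above 0 and 1141 below 0. Irs1, an insulin receptor substrate, had 9.03, 47.6, 2.25, 5.63 and 9.18 CPM in iBAT, against 1.92, 1.85, 1.75, 1.28 and 2.66 CPM in scWAT, at 22 °C, and averaged 1.18 ± 0.646 CPM in iBAT and 10.4 ± 6.52 CPM in scWAT at 13 °C (SD, n = 5 iBAT and 4 scWAT; difference 6.07 ± 0.99 SE on the log2 scale, edgeR adjusted p = 0.00129). Cpt1b averaged 18.6 ± 12.6 CPM in iBAT and 0.0289 ± 0.0443 CPM in scWAT at 22 °C (SD, n = 5 each), and 5.92 ± 3.08 CPM in iBAT and 0.711 ± 0.898 CPM in scWAT at 13 °C (difference 6.05 ± 1.86 SE on the log2 scale, edgeR adjusted p = 0.0333). Leng8, the Mediator subunit Med12, the ribosomal protein Rps29, Srek1ip1 and the copper chaperone Cox17 had differences of 3.30, 3.48, -2.92, -2.15 and -2.38. The median exon length was 4322 bases for the genes above 0 and 1608.5 bases for those below 0, beside 3176 bases over all genes tested, and the part of transcript length in these calls was not tested. Without the 3 scWAT libraries at 13 °C that carry keratin transcripts (replicates 3, 4 and 5), which leaves 1 library in that group, 2 genes were called. The summed level of Krt5, Krt8, Krt14, Krt18 and Krt19 was 64.2, 236.0 and 234.7 CPM in replicates 3, 4 and 5, against 0.133 CPM in replicate 1 and at most 0.382 CPM in the iBAT libraries at 13 °C. Without iBAT replicate 2 at 22 °C, 695 genes were called, and without scWAT replicate 1 at 22 °C, 3296. Of 36 nuclear complex I subunits, 10 were called below 0 and none above, with a median difference of -0.75. For 37 nuclear subunits of complexes II to V it was 2 and none, with a median of -0.54. Of 13 mitochondrially encoded transcripts, 1 was called below and 1 above, with a median of -0.45. Of all 22245 genes tested, 1141 were called below 0 and 863 above. The counts for complexes II to V and for mitochondrially encoded transcripts were near these shares. Other genes described above that were called with a difference above 0 were mt-Nd5 (1.48), Scd1 (2.67), Slc25a1 (2.16), Gpat3 (1.77), Adrb3 (2.42), Pnpla3 (2.54), Dusp1 (2.10), Sgk1 (1.42) and Lrrc32 (2.33). Those below 0 were En1 (-3.62), Mt2 (-4.18), Sparc (-1.57) and Lpgat1 (-1.38), and Ucp1 was not called (difference 1.39 ± 1.78 SE on the log2 scale, edgeR adjusted p = 0.659).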

How the data were processed

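Read counts per gene, deposited by the authors as 1 table per depot, were used as deposited. Per the submitters' processing notes, FastQC, GSNAP and featureCounts 1.6.3 were used with build mm10, and no strand or multi-mapping setting is named there. The SMART-seq2 protocol uses no molecular identifiers and keeps no strand, so overlapping genes and near-identical copies can share reads.

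The tables were joined by gene ID (31933 genes, 55 libraries, 19 of them gonadal fat, which enters only the shared fit). Library groups came from the labels. edgeR 4.0.16 in R 4.3.3 was run with TMM factors, its expression filter (minimum count 10; 22245 genes kept) and robust quasi-likelihood fits of 12 group means, with 43 residual degrees of freedom, followed by Benjamini-Hochberg adjustment over all genes tested. Depot differences were compared between treatments and temperatures by contrasts of the same fit. CPM were computed on TMM-scaled totals, and SE is the log2 fold change over the root of F. The steps were tested on simulated data.

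The comparison, the 39 gene lists and the tests were chosen with earlier results of these data known. Genes were named from up to 4 called members per list and direction by adjusted p, the 12 largest called changes per direction with non-overlapping groups and a mean log2 CPM of at least 3, the first 6 per direction in each difference test, and a set fixed by symbol; Cpt1b, Scd1, Hoxa9, Hoxc5 and Hoxc8 were chosen after their values were seen. Some genes that the rule names are not reported here. Alternatives were other scalings, no filter, DESeq2 1.42.0, limma 3.58.1 (voom with library weights), fewer libraries in the fit, a replicate block and leaving out libraries; those that leave out muscle-rich or keratin-rich libraries were chosen after seeing the data. Promoter windows came from RefSeq on GRCm38.p6, and gene positions from the reference annotation of GRCm38.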

Additional observations from a re-analysis of the deposited data

Results flagged for a closer look

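Single libraries lay far from the other 4 of their group for some genes, measured as the gap to the nearest library over the group's whole range of log2 CPM, where 0.71 is Dixon's limit for 5 samples. Of 298 groups examined, 13 passed it, and chance alone passes about 1 in 20. In iBAT replicate 2 the ratio was 0.815 for Hadhb and 0.763 for Slc16a1. In iBAT replicate 3 the ratio was 0.785 for Ckmt2. In iBAT replicate 4 the ratio was 0.755 for Lpgat1. In scWAT replicate 2 the ratio was 0.813 for Adra1a, 0.839 for Ckmt2, 0.749 for Adamts5 and 0.723 for Cd209f. In scWAT replicate 3 the ratio was 0.763 for Adrb3 and 0.777 for Ldhd. In scWAT replicate 4 the ratio was 0.75 for Hadhb. In scWAT replicate 5 the ratio was 0.796 for Lhx8 and 0.714 for Lrrc32.

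The depot difference itself, as log2 of iBAT over scWAT, differed between corticosterone and placebo at 22 °C for these genes by edgeR's test of the difference (adjusted p under 0.05). It was above that under placebo for Hadhb (2.346), Slc25a1 (3.026), Hspa1a (4.136), Slc16a1 (2.249), Ldhd (2.097), Lrrc32 (3.208), Suclg2 (1.525) and Chchd10 (3.522). It was below that under placebo for Lpl (-1.831), Sfrp5 (-5.357), Klf15 (-2.025), Rasd1 (-3.936), Foxo1 (-1.613), Timp4 (-3.606), Adamts5 (-2.9), Retnla (-3.603), Chrdl1 (-4.936), Agt (-4.983), Cd209d (-5.587), Cd209f (-4.771), Slco3a1 (-3.092) and Lpgat1 (-2.302). Timp4 was the only one of these 22 to keep its call in every alternative tried.

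Between 22 °C and 13 °C under corticosterone, the depot difference was higher at 22 °C for mt-Nd5 (1.477), Cpt1b (6.051), Scd1 (2.671), Slc25a1 (2.157), Gpat3 (1.769), Adrb3 (2.418), Pnpla3 (2.544), Dusp1 (2.102), Sgk1 (1.417), Lrrc32 (2.331), Leng8 (3.303), Irs1 (6.066) and Med12 (3.48). It was lower at 22 °C for En1 (-3.621), Mt2 (-4.18), Sparc (-1.572), Lpgat1 (-1.381), Rps29 (-2.925), Srek1ip1 (-2.147) and Cox17 (-2.381). Of these 20 genes, Irs1 kept its call in every alternative tried, and 9 kept it when each library was left out in turn. The scWAT libraries at 13 °C with keratin transcripts enter each of these values, and their part was not tested apart from the count without them.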

How the results depend on the processing

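Of 156 genes named with a fold change between the depots, 144 were called, and 135 of these kept direction and call in all 21 alternatives. Another 9 lost the call in at least 1 alternative (Adrb3, C1qa, Cox17, Ebf1, Ebf2, Fkbp5, Insr, Rps29 and Tbx5), 3 were called only in an alternative (Dbp, Irf4 and Srek1ip1), and none changed sign. The genes called higher numbered 2380 to 3613 and those lower 2157 to 4581 over other scalings, tools, filters and sets of libraries. Of these, a fit of the 10 libraries alone gave 2422 lower, and the cause was not tested beyond the smaller number of libraries. Leaving out 1 library gave 2585 to 3781 higher and 3304 to 4803 lower, with the largest counts without scWAT replicate 1.

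The replicate numbers could not be shown to pair the depots. Of 5 same-numbered pairs, 2 correlated over 0.1 in their deviations from the group means (-0.274 to 0.354), and 4 of 10 libraries correlated best with their own number. With the replicate number as a block and only the libraries of each contrast, 2554 genes were called higher and 2157 lower, the test against placebo called 12 and the test against 13 °C 296. The same libraries without the block gave 2439 higher and 2422 lower, 42 and 554.

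The corticosterone minus placebo test, 103 genes, called 44 with no filter on low counts, 379 by DESeq2, 1494 by limma-voom, 42 with only the libraries of the 4 groups, 44 without scWAT replicates 2 and 3, 38 without these and iBAT replicate 5, and 55 without iBAT replicate 3 and scWAT replicate 2. Leaving out 1 library gave 7 to 378. The 22 °C minus 13 °C test, 2004 genes, called 554 with only the 4 groups, 1133 without scWAT replicates 2 and 3, 1276 without these and iBAT replicate 5, and 2 without scWAT replicates 3, 4 and 5 at 13 °C. Leaving out 1 library gave 695 to 3296. The causes were not tested. The libraries share no identifier of an animal, and low genes are limited by counting. The biological coefficient of variation over the 55 libraries was 53%, and the part of RNA amplification from small areas in it was not tested.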
